A study of Mus musculus with 39 samples.

Results

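Matrix metalloproteinases (MMPs), their tissue inhibitors (TIMPs) and the ADAMTS proteases were followed through RNA-seq of the mouse gubernaculum and testis after the hormone gene Insl3 had been replaced or lost. Members were taken by symbol: every gene named Mmp, Timp or Adamts followed by a number, leaving out the ADAMTS-like genes, which have no protease domain. The rule found 46 of the 21561 genes that both deposited count tables hold, namely 23 MMPs, 4 TIMPs and 19 ADAMTS proteases. Of these, 28 were above 3 counts in every library, and Mmp1a alone had no count in any.

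Male mice of a C57BL/6J background were wild type (WT), homozygous knock-ins (INSL3-KI) or INSL3-KO, and no animal received a treatment. In INSL3-KI the complementary DNA of minke whale INSL3 was placed into the mouse locus by homologous recombination, so that it replaced mouse Insl3 under the native control of the gene. How the INSL3-KO line was made is not given in the sources used here. Gubernaculum was taken at postnatal day (P) 8 from WT, INSL3-KI and INSL3-KO and at P23 from WT and INSL3-KI, and testis at P8 and P23 from all genotypes and at P40 from WT and INSL3-KI. Each of the 13 groups had 3 libraries, 39 in all, with 29861447 to 45260372 counts. The labels call them biological replicates without saying whether animals were pooled, so the p-values measure the spread between these libraries. The INSL3-KO libraries and the WT testis at P23 come from a second count table. INSL3-KO at P8, and INSL3-KI in the P23 testis, could therefore be compared with WT only across the 2 tables.

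The targeted gene was checked first. Insl3 was at 71.1 to 89.4 CPM (counts scaled to library depth) in the WT testis at P8 and at 0.455 to 0.926 CPM in INSL3-KI. The INSL3-KI testis held 1.22 to 2.31 CPM at P23 and 11.4 to 14.2 at P40, where WT held 538 to 705. In the P8 gubernaculum WT held 0.663 to 2.43 CPM, and every INSL3-KI and INSL3-KO library had 0 counts. In the P23 gubernaculum INSL3-KI held 0 to 0.793 CPM and WT 0.245 to 0.787. The P8 testis libraries labelled INSL3-KO held 16.5 to 21.9 CPM of Insl3, that is 613 to 906 counts, whereas those of P23 held 0 to 0.119 CPM against 528 to 647 CPM in WT. The P8 group is therefore called the testes labelled INSL3-KO.

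MMPs are zinc-dependent enzymes that cut collagens, proteoglycans and other matrix proteins, and most are made as inactive precursors. TIMPs block their active site, while TIMP2 bound to the membrane enzyme MMP14 also serves to activate MMP2. ADAMTS proteases are secreted relatives with thrombospondin repeats, among them enzymes that cleave versican and aggrecan and others that trim procollagens. The gubernaculum is a cord of loose matrix, fibroblasts and muscle that anchors the testis to the groin, and its matrix swells and is then resorbed as the testis descends. In the testis the same enzymes act on the basement membrane and on the junctions between Sertoli cells.

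A cluster of 10 neighbours on chromosome 9 holds several collagenases and stromelysins, and their start sites differ in sequence from those of other members. Mmp13, Mmp12, Mmp1b, Mmp3, Mmp1a, Mmp10, Mmp8, Mmp27, Mmp20 and Mmp7 lie together at chr9:7272514-7699585 (GRCm38, GENCODE M21). Windows of 300 bases around RefSeq start sites, 250 before and 50 after, were searched on both strands for TGANTCA, the site of the AP-1 factors, and for TATAAA, the TATA box. In 8 of the 10 neighbours a window held both motifs, whereas 1.54% of all 32851 RefSeq windows did. Of 22 other members with a window, none held TGANTCA, and TATAAA was found in Mmp21 and Adamts1. The other 14 members had no window. The matches describe letters, not binding. The 110 bases before 6 of these starts are printed because both motifs stand there, with the motifs in capitals, all on the plus strand of chromosome 9 (RefSeq, GRCm38.p6).
Mmp13: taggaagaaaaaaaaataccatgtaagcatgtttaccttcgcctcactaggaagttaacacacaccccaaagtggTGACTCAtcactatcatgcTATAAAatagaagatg
Mmp3: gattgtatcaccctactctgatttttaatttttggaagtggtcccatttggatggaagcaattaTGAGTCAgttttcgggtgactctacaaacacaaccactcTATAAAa
Mmp1a: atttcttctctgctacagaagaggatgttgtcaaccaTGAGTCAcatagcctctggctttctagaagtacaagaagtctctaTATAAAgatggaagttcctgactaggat
Mmp10: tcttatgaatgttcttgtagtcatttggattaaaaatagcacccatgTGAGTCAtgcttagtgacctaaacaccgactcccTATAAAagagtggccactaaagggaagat
Mmp20: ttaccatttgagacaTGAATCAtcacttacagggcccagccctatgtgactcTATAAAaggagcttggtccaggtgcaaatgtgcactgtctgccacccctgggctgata
Mmp7: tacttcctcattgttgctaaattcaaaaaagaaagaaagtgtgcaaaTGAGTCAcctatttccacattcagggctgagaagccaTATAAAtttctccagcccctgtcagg
The same stretch before Mmp14 and Adamts20, a pair of members with large differences between genotypes, held neither motif. The first was chr14:54431488-54431597 on the plus strand and the second chr15:94404351-94404460 on the minus strand, before a RefSeq start that lies inside the span GENCODE gives the gene.
Mmp14: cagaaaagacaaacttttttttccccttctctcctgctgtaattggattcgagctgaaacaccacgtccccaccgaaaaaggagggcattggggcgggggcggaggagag
Adamts20: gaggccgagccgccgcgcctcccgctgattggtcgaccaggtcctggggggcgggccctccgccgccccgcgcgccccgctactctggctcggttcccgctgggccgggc

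Levels in the cluster were low, as they were in some members outside it, such as Mmp21 and Adamts13. The highest CPM in any of the 39 libraries was 5.99 for Mmp3, 2.95 for Mmp7, 2.16 for Mmp12, 1.33 for Mmp13 and 1.02 for Mmp27, and the other 5 neighbours stayed below those values. Mmp3, stromelysin-1, was counted in every gubernaculum library, at 1.83, 1.26 and 0.38 CPM in WT at P8, and was at 0 in all 9 testis libraries of P8. In the P8 WT comparison of gubernaculum with testis it was at least 17.5-fold higher, with 3 counts taken as the floor in the testis.

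**Figure D1:**
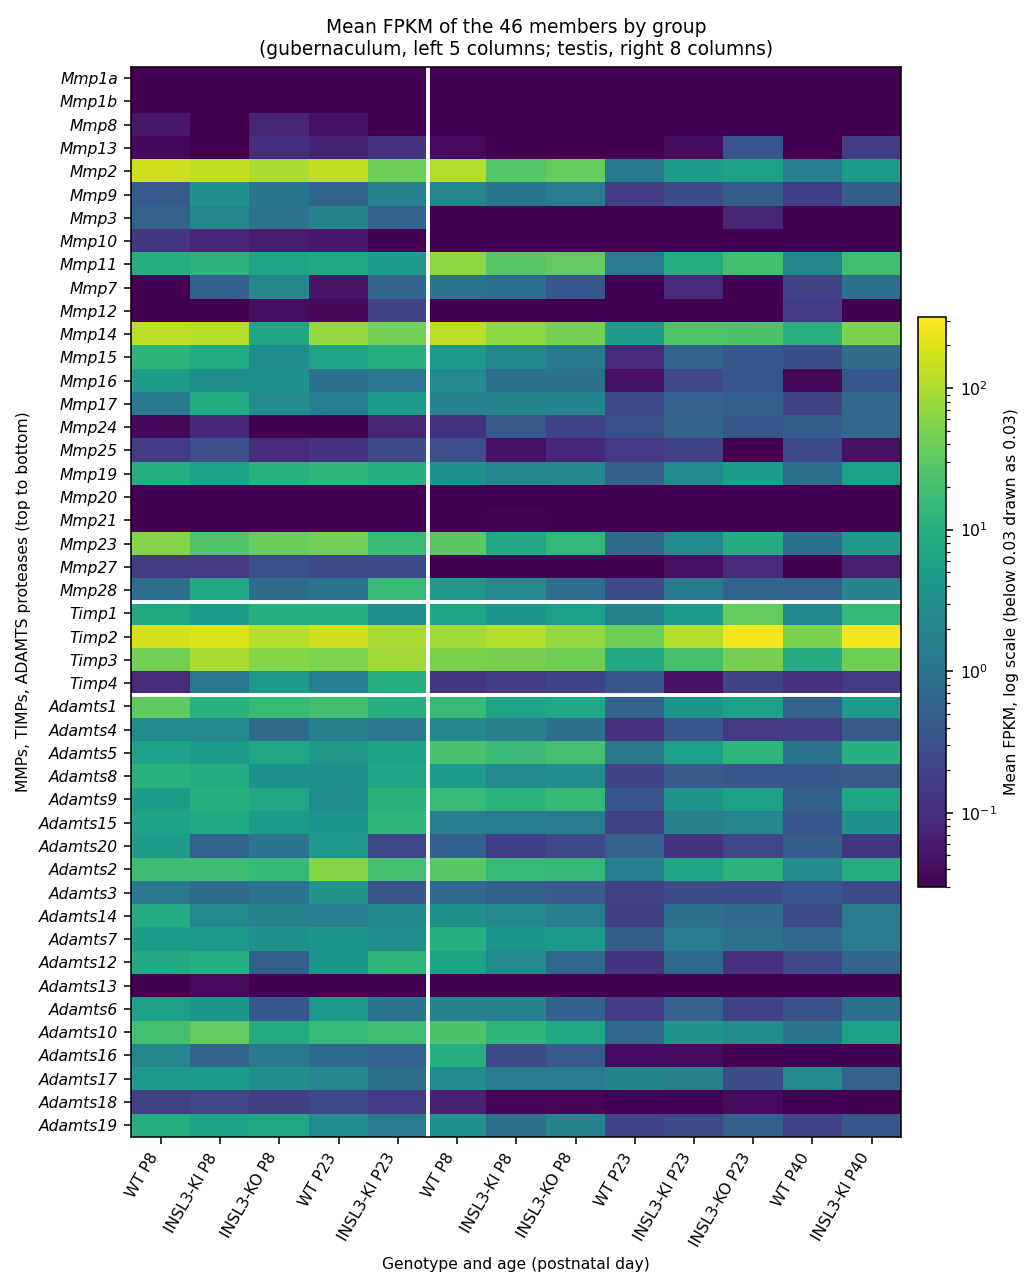
Mean FPKM (a level scaled to gene length and library depth, log colour scale) of the 46 members, in rows by role, in the 13 groups of 3 libraries, in columns. Timp2, Mmp2 and Mmp14 led the WT and INSL3-KI gubernaculum at P8, but Mmp14 was at 7.35 FPKM in INSL3-KO. In the WT testis Timp2 stood above the other members at P40.

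Between genes, levels were compared as FPKM, which allow for length, and errors of levels are standard deviations over 3 libraries. In the WT gubernaculum at P8 the order was Timp2 at 172 ± 9.6, Mmp2 at 158 ± 24.8, Mmp14 at 126 ± 5.9, Mmp23 at 58 ± 11.6 and Timp3 at 45.9 ± 7.99 FPKM. Timp2 and Mmp2 did not differ beyond their spread, nor did Mmp23 and Timp3. The inhibitor and the enzymes of the MMP2 activation complex were thus the 3 most abundant members. In the WT testis at P8 the leaders were Mmp14 at 124 ± 11.4, Mmp2 at 108 ± 29, Timp2 at 89.8 ± 26.8 and Mmp11 at 69.2 ± 6.63 FPKM. By P40 Timp2 stood at 50.5 ± 8.52 FPKM and Mmp14 at 10.7 ± 1.08.

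Summed over the family, MMPs stood at 383 ± 26.5 FPKM, TIMPs at 227 ± 14.9 and ADAMTS proteases at 155 ± 19.6 in the WT gubernaculum at P8. TIMP FPKM per MMP FPKM were 0.524 to 0.656 in these WT libraries, 0.827 to 1.03 in INSL3-KI and 1.03 to 1.06 in INSL3-KO. The ratios of WT and of either mutant did not overlap. They went with MMP sums of 327 ± 29.2 and 178 ± 2.75 FPKM and TIMP sums of 294 ± 15.6 and 187 ± 3.75 in INSL3-KI and INSL3-KO. At P8 the testis gave 0.389 to 0.462 in WT, 0.89 to 1.82 in INSL3-KI and 0.832 to 0.843 in the testes labelled INSL3-KO. In both tissues at P8 the libraries labelled INSL3-KO come from the second table and the others from the first. Table and genotype cannot be told apart for those INSL3-KO ratios. At P23 the gubernaculum gave 0.637 to 1.14 in WT and 1.23 to 1.47 in INSL3-KI, both from the first table. In the testis of that age the order turned for the knock-in, with 4.66 to 5.44 in WT, 2.6 to 3.06 in INSL3-KI and 5.26 to 5.6 in INSL3-KO. There WT and INSL3-KO overlapped and come from the second table, and INSL3-KI from the first. Table and genotype cannot be told apart for that turn. At P40 the testis ratios were 3.19 to 3.5 in WT and 3.52 to 3.92 in INSL3-KI.

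Genes were tested with the quasi-likelihood test of edgeR, and a gene was called where its Benjamini-Hochberg adjusted p over all genes tested was under 0.01 and its fold at least 2. Log2 fold changes are given with approximate standard errors, taken as their size over the square root of the F statistic of the test. The words "lower" and "higher" call a mutant against WT. Over the 8 comparisons of a mutant with WT, 38 members could be tested at least once and 31 in all 8. Of the 38, 33 were called at least once, 14 of them lower in one comparison and higher in another, and 5 were never called. The other 8 members were too low to test.

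**Figure D2:**
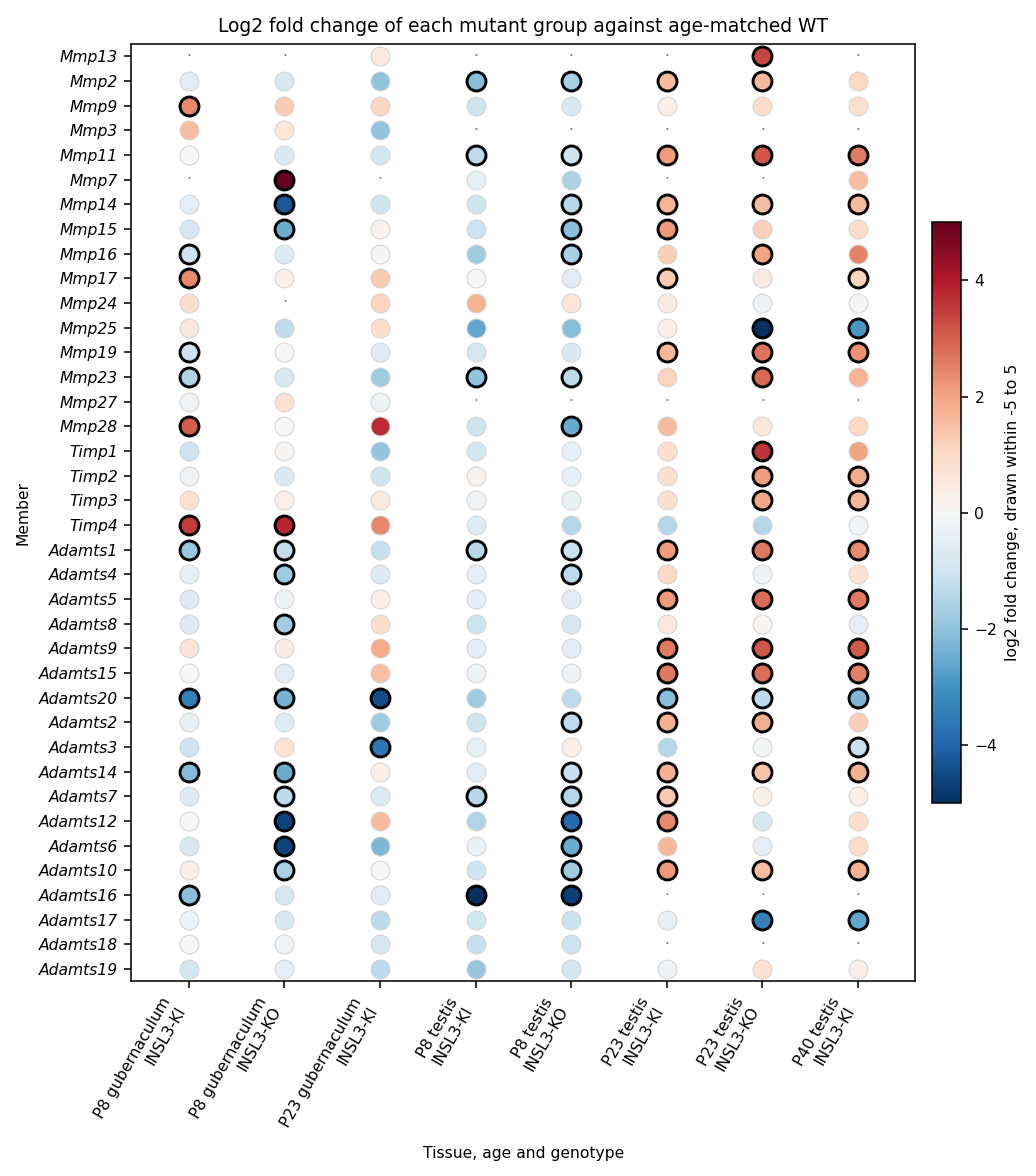
Log2 fold change (colour, clipped at 5 either way) of the 38 members tested in at least 1 of 8 comparisons of a mutant with WT, with members in rows and comparisons in columns. Black outlines mark calls and small dots untested pairs. The P8 testis columns are mostly blue and the P23 and P40 testis columns mostly red, and Adamts20 is below zero in all 8, with 6 calls. On a scale set by Sertoli cell genes the red of the later testis fades or turns.

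Adamts20 was called lower in 6 of the 8 comparisons and never higher, more often lower than any other member. It encodes a versican-cleaving protease whose loss gives belted mice their white belt, and it lies at chr15:94270163-94465418. Of the 13729 genes tested in all 8 comparisons, 52 (0.379%) were called lower in at least 6, and none of the 52 was called higher in any.

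In the P8 gubernaculum Adamts20 was at 23, 42.5 and 45.7 CPM in the WT libraries, 2.51, 2.99 and 4.69 in INSL3-KI and 7.51, 6.96 and 7.19 in INSL3-KO. The genotypes did not overlap, and the knock-in was below the knockout. Its log2 fold change was -3.41 ± 0.33, adjusted p = 7.34e-05 in INSL3-KI and -2.36 ± 0.26, adjusted p = 0.000171 in INSL3-KO. Between the mutants it was -1.08 ± 0.25, adjusted p = 0.00755, just past a fold of 2, and was no longer called with library size alone (-0.90, adjusted p = 0.0163) or on the fibroblast list (-0.76, adjusted p = 0.0572).

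At P23 the gubernaculum held 30.8, 35.4 and 29.8 CPM of Adamts20 in WT and 1.24, 1.48 and 1.63 in INSL3-KI. Every knock-in library was under every WT library (-4.45 ± 0.22, adjusted p = 0.00134). That call was lost without WT replicate 2, where the log2 fold change was -4.37. It was also lost in edgeR with the replicate number as a block (-4.46, adjusted p = 0.0171).

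The testis held less Adamts20. At P8 the WT libraries were at 2.05, 2.91 and 5.15 CPM, INSL3-KI at 0.857, 0.935 and 1.04 and the testes labelled INSL3-KO at 0.898, 1.75 and 1.38. Both mutants stood below WT without overlap, but neither difference passed (-1.77 ± 0.41, adjusted p = 0.0194 and -1.30 ± 0.42, adjusted p = 0.0329). At P23 the values were 4.23, 3.91 and 4.74 CPM in WT, 0.788, 1.21 and 0.881 in INSL3-KI and 1.41, 2.14 and 1.31 in INSL3-KO, and at P40 3.81, 5.26 and 4.06 in WT and 1.07, 0.776 and 0.832 in INSL3-KI. Mutants again lay below WT without overlap, and each of the 3 comparisons was called (-2.14 ± 0.28, -1.34 ± 0.26 and -2.24 ± 0.24, adjusted p = 0.00232, 0.000721 and 0.000506). Scaled by library size alone the P23 INSL3-KO value was -0.70 (adjusted p = 0.0291), and on the Sertoli cell list all 3 were further below zero, from -3.42 to -4.55.

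**Figure D3:**
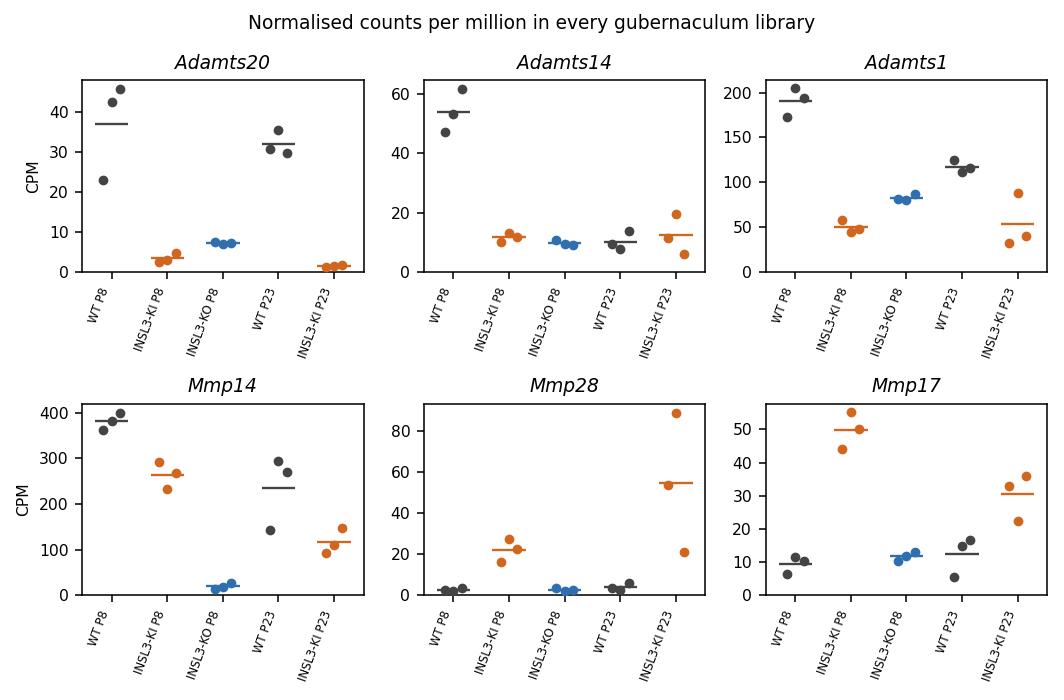
CPM of Adamts20, Adamts14, Adamts1, Mmp14, Mmp28 and Mmp17 in each gubernaculum library (points) of the 5 groups, with bars at the group means. Adamts20 sits between 23 and 45.7 CPM in WT and at 7.51 or less in every mutant library, and Mmp14 is at 28 CPM or less in INSL3-KO at P8 and at 92.3 or more elsewhere.

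In the P8 gubernaculum the knock-in showed 7 members lower and 4 higher of 36 tested, against 24.1% of all genes called in either direction, 9.7% lower and 14.4% higher. The lower members included the versicanases Adamts20 and Adamts1, the procollagen protease Adamts14 and Adamts16. The higher ones were Mmp9, Mmp17, Mmp28 and Timp4. The members' median log2 fold change was -0.37 and that of all genes 0.02. With library size alone in place of TMM scaling the split was 5 lower and 6 higher, and with all groups of the tissue in 1 fit 5 members were called in all.

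Mmp9, the gelatinase that neutrophils and macrophages store or secrete, was at 0.79, 1.86 and 1.93 CPM in WT and 7.57, 10.8 and 5.16 in INSL3-KI. All knock-in libraries were above all WT libraries (2.40 ± 0.41, adjusted p = 0.00162). Beside it, 1 gene of the 8 on the neutrophil list, lactoferrin, Ltf, went from 0 to 0.316 CPM in WT to 74.1 to 129 in INSL3-KI. The other 7 were at 0.758 CPM or less in the knock-in, and Ly6g was at 0. The summed macrophage list went from 351 to 473 CPM in WT to 176 to 196, with 5 of its 8 genes called lower. The part of these cells in the Mmp9 difference was not tested. Mmp2, the gelatinase of fibroblasts, was at 658, 551 and 489 CPM in WT and 406, 336 and 367 in INSL3-KI and did not pass (-0.57 ± 0.14, adjusted p = 0.00836).

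Among the membrane-type enzymes Mmp14, the collagenase that activates MMP2 at the cell surface, was at 361, 381 and 400 CPM in WT and 291, 233 and 267 in INSL3-KI. The knock-in libraries were lower throughout, yet the fold was under 2 (-0.49 ± 0.11, adjusted p = 0.00675). Mmp17, held in the membrane by a lipid anchor, was at 6.44, 11.7 and 10.5 CPM in WT and 44, 55.3 and 50.1 in INSL3-KI. It rose 5.34-fold (2.42 ± 0.22, adjusted p = 5.64e-05). Mmp28, epilysin, named for its expression in epithelia, was at 2.53, 2.28 and 3.54 CPM in WT and 16.1, 27.5 and 22.7 in INSL3-KI. It rose 8.16-fold without overlap (3.03 ± 0.27, adjusted p = 4.09e-05), while the epithelial list went from 22.6 to 64.8 to 823 to 965 CPM. Mmp23, Mmp16 and Mmp19 fell by 1.51, 1.08 and 1.08 on the log2 scale. Mmp16 and Mmp19 each lost the call with library size alone (-0.76) and on the fibroblast list (-0.97).

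Of the inhibitors, Timp1 was at 9.38, 7.93 and 8.32 CPM in WT and 5.02, 1.97 and 5.28 in INSL3-KI (-1.02 ± 0.34, adjusted p = 0.035). Timp2 was at 699, 780 and 756 CPM in WT and 641, 636 and 599 in INSL3-KI (-0.21 ± 0.11, adjusted p = 0.128), with a log2 fold change of 0.10 by library size alone. Timp3, the inhibitor that stays bound to matrix, was at 241, 291 and 211 CPM in WT and 392, 483 and 376 in INSL3-KI (0.79 ± 0.16, adjusted p = 0.00332). Timp3 lies inside Syn3, which was at 2.06 CPM or less in every library. None of these 3 inhibitors passed, but Timp3 did with library size alone (1.11, adjusted p = 0.000485), and Timp1 was below WT and Timp3 above WT in every knock-in library.

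Timp4 was at 0.6, 0.811 and 0 CPM in WT, 3.12, 8.05 and 4.67 in INSL3-KI and 7.07, 6.75 and 5.96 in INSL3-KO. Both mutants were above WT in every library and were called (3.51 ± 0.86, adjusted p = 0.00901 and 3.79 ± 0.84, adjusted p = 0.00539). Timp4 lies inside Syn2, on the other strand, and Syn2 moved beside it from 2.24 to 3.6 CPM in WT to 8.09 to 11.9 and 5.72 to 6.89. Whether the authors counted by strand is not given in the sources used here, so reads of the 2 genes cannot be told apart. The tables also imply unlike lengths for Timp4, with a ratio of 0.271 between second and first, and the calls were lost under DESeq2.

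The ADAMTS proteases fell in the knock-in where they passed after TMM scaling. Adamts9 stood at 0.7 there and was called higher with library size alone (1.02, adjusted p = 0.000835). Adamts1, which cleaves versican in the ovulating follicle, was at 173, 205 and 194 CPM in WT and 57.5, 44.3 and 47.5 in INSL3-KI (-1.90 ± 0.13, adjusted p = 9e-06). Adamts14, which trims the amino end of fibrillar procollagens, was at 47.1, 53.1 and 61.8 CPM in WT and 9.96, 13.2 and 11.8 in INSL3-KI (-2.17 ± 0.16, adjusted p = 1.47e-05). Adamts16, a gene whose disruption in rats was linked with undescended testes, was at 7.67, 16.3 and 13.5 CPM in WT and 3.07, 2.87 and 2.68 in INSL3-KI (-2.08 ± 0.29, adjusted p = 0.000509). None of the 3 overlapped WT. Of 18 ADAMTS proteases tested, 4 were lower and 0 higher by edgeR, against 9.7% and 14.4% of all genes.

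Marker lists of several cell types also differed between the genotypes. The summed skeletal muscle list was at 39800 to 43300 CPM in WT, 729 to 1270 in INSL3-KI and 7400 to 7960 in INSL3-KO, and the smooth muscle list at 3510 to 4030, 15000 to 19200 and 7070 to 7500. The fibroblast list was at 3770 to 3940, 2100 to 3090 and 4760 to 5210 CPM. The adipocyte list was at 90.9 to 103, 745 to 1010 and 1920 to 2130 CPM, with all 6 genes called higher in both mutants, as Timp4 was, and the macrophage list at 305 to 318 CPM in INSL3-KO. The part of these cells in the differences was not tested. In bulk tissue, fewer cells of a type and less RNA per cell cannot be told apart. Scaled on the fibroblast list, the log2 fold changes in INSL3-KI were -3.30 for Adamts20, -2.05 for Adamts14, -1.81 for Adamts1, 2.54 for Mmp17 and 3.17 for Mmp28, all still called.

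INSL3-KO at P8 had 11 members lower and 2 higher of 36 tested in the gubernaculum, against 30.7% of all genes called, 15.2% lower and 15.5% higher. Their median log2 fold change was -0.70, with 0.03 over all genes. Adamts6, Adamts12 and Mmp14 had the largest falls among members above 5 CPM. The 2 groups come from different tables, and 10 of the 38 members with a length in both tables had lengths over 10% apart.

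Mmp14 was at 361, 381 and 400 CPM in WT and 13.1, 18.7 and 28 in INSL3-KO. Every knockout library was under every WT library, by 19.1-fold (-4.25 ± 0.28, adjusted p = 1.57e-05), and against INSL3-KI Mmp14 was higher in the knock-in (3.73 ± 0.28, adjusted p = 4.84e-05). Its implied length was alike in both tables, with a ratio of 1.03. In the testes labelled INSL3-KO, which come from the same table, Mmp14 was at 106, 104 and 113 CPM against 259, 299 and 322 in WT (-1.42 ± 0.09, adjusted p = 3.47e-05). The difference between these tissue effects was itself called (-2.93 ± 0.30, adjusted p = 1.83e-05), as it was for 4 members lower and 5 higher in gubernaculum than in testis of 37 tested, against 20.2% of all genes, 10.3% lower and 9.89% higher.

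Mmp2 was at 311, 323 and 313 CPM in INSL3-KO, below the WT libraries without overlap, and did not reach a fold of 2 (-0.84 ± 0.11, adjusted p = 0.000387). Mmp15, another membrane-type enzyme, was at 65.9, 73.3 and 89.4 CPM in WT and 13.3, 15.8 and 12 in INSL3-KO (-2.48 ± 0.15, adjusted p = 1.32e-05). Its implied length ratio between tables was 0.866. Mmp7, matrilysin, an enzyme of glandular epithelia, had 0 counts in the 3 WT libraries and 2.95, 2.21 and 2.28 CPM in INSL3-KO, so it was at least 26.55-fold higher with the floor of 3 counts.

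Timp1 was at 8.79, 8.89 and 10.1 CPM in INSL3-KO (0.11 ± 0.14, adjusted p = 0.479), within the WT range in 2 libraries and above it in 1. Timp2 was at 430, 430 and 445 CPM, under all WT libraries but short of a fold of 2 (-0.78 ± 0.07, adjusted p = 6.9e-05). Timp3 was at 294, 286 and 303 CPM (0.25 ± 0.12, adjusted p = 0.106). No inhibitor other than Timp4 was called in INSL3-KO.

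Of the 11 lower members 9 were ADAMTS proteases, of 18 tested, against 15.2% of all genes called lower. Adamts6 was at 46.6, 51.7 and 46.8 CPM in WT and 2.37, 1.49 and 1.96 in INSL3-KO (-4.64 ± 0.18, adjusted p = 1.93e-06). Adamts12, which cleaves cartilage oligomeric matrix protein, was at 64.7, 78.4 and 96.9 CPM in WT and 3.13, 3.34 and 3.31 in INSL3-KO (-4.62 ± 0.17, adjusted p = 1.85e-06). Both were at 3.79 CPM or less in all 12 libraries of the second table, and their implied length ratios were 0.688 and 0.747. Adamts12 in the testes labelled INSL3-KO was at 3.79, 2.77 and 3.77 CPM, against 31.5, 43.3 and 80 in WT, and the difference between the tissue effects did not pass (-0.84 ± 0.42, adjusted p = 0.123). Differences between tables and between genotypes cannot be told apart for these 2 genes. The same holds for every other member where INSL3-KO at P8 is compared with WT or INSL3-KI.

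Adamts14 was at 10.7, 9.45 and 9.11 CPM in INSL3-KO (-2.47 ± 0.13, adjusted p = 6.16e-06). Adamts8, a protease of the same clade as Adamts1, was at 44.1, 50.9 and 47.4 CPM in WT and 12.9, 14.7 and 12.6 in INSL3-KO (-1.83 ± 0.10, adjusted p = 7.79e-06). Both had lengths within 10% in the 2 tables and did not overlap WT. Adamts1 was at 81.4, 80.4 and 87.1 CPM in INSL3-KO, between the knock-in and WT (-1.20 ± 0.09, adjusted p = 2.68e-05). Adamts4, Adamts7 and Adamts10 fell by 1.82, 1.35 and 1.59 on the log2 scale. Kept to members of like length, 8 of the 13 calls stood.

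Between the mutants, 4 members were lower and 9 higher in INSL3-KI of 36 tested, against 22.5% of all genes called, 10.5% lower and 11.9% higher. The split was 2 and 9 with library size alone and 1 and 11 on the fibroblast list. Mmp28 (3.01 ± 0.27, adjusted p = 9.61e-05) and Mmp17 (2.09 ± 0.12, adjusted p = 2e-05) were higher in the knock-in, and Mmp17 had a length ratio of 0.668. In INSL3-KO Mmp28 was at 3.6, 2.18 and 2.49 and Mmp17 at 10.3, 11.9 and 13 CPM, which overlap the WT libraries, while the epithelial list was at 503 to 553 CPM there. Adamts20 and Mmp19 (-1.15 ± 0.08) were lower in the knock-in than in the knockout, and neither was called with library size alone or on the fibroblast list.

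By P23 the gubernaculum of INSL3-KI had 2 members lower and 0 higher of 37 tested by edgeR, against 2.57% of all genes, 2.35% lower and 0.212% higher. At an unadjusted p under 0.05 there were 16 members, DESeq2 called 7, and 9 were called with all groups of the tissue in 1 fit. Besides Adamts20 the lower member was Adamts3, which trims procollagens and activates a lymphatic growth factor, at 13.5, 23.3 and 12.8 CPM in WT and 0.992, 1.29 and 1.79 in INSL3-KI. The groups did not overlap (-3.60 ± 0.40, adjusted p = 0.00629). On the fibroblast list the split was 1 lower and 2 higher, and Adamts3 lost its call.

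Knock-in libraries at P23 were far apart in make-up. The adipocyte list ran from 481 to 14600 CPM and the epithelial list from 2.65 to 1650, and Ltf of the neutrophil list from 0 to 415, where the other 7 genes of that list were at 2.1 CPM or less. Mmp28 was at 3.68, 2.74 and 5.9 CPM in WT and 53.7, 89.1 and 21.2 in INSL3-KI, higher in each knock-in library, but did not pass (3.74 ± 0.61, adjusted p = 0.0185). Mmp2 was at 279, 643 and 613 CPM in WT and 82.9, 125 and 173 in INSL3-KI, below WT in all libraries (-2.0 ± 0.43, adjusted p = 0.0342). Mmp14 was at 144, 294 and 269 CPM in WT and 92.3, 110 and 148 in INSL3-KI, with overlap (-1.01 ± 0.33, adjusted p = 0.0913). Its value on the fibroblast list was 0.01.

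Timp1 at P23 was at 10.5, 12.9 and 8.78 CPM in WT and 0.854, 3.27 and 4.15 in INSL3-KI (-1.97 ± 0.59, adjusted p = 0.0791). Timp2 was at 654, 775 and 776 CPM in WT and 259, 434 and 426 in INSL3-KI (-0.98 ± 0.26, adjusted p = 0.061). Both were below WT in every knock-in library without passing. Timp3 was at 266, 282 and 371 CPM in WT and 352, 568 and 377 in INSL3-KI (0.50 ± 0.26, adjusted p = 0.225). Timp4 was at 15.3, 6.46 and 11.9 CPM in WT and 31.1, 148 and 5.37 in INSL3-KI (2.44 ± 1.11, adjusted p = 0.182), highest in knock-in replicate 2. These 2 overlapped WT. Syn2, which surrounds Timp4, was at 2.37 to 9.52 CPM in WT and 12.5 to 55.8 in INSL3-KI.

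Whether the knock-in effect on the gubernaculum differed between P8 and P23 was asked with an interaction term. By edgeR 0 of 38 members passed, against 0.281% of all genes, 0.194% lower and 0.0874% higher, with 12 members at an unadjusted p under 0.05 and 4 called by DESeq2. Adamts20 differed by -1.07 ± 0.41 between the ages (adjusted p = 0.132).

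**Figure D4:**
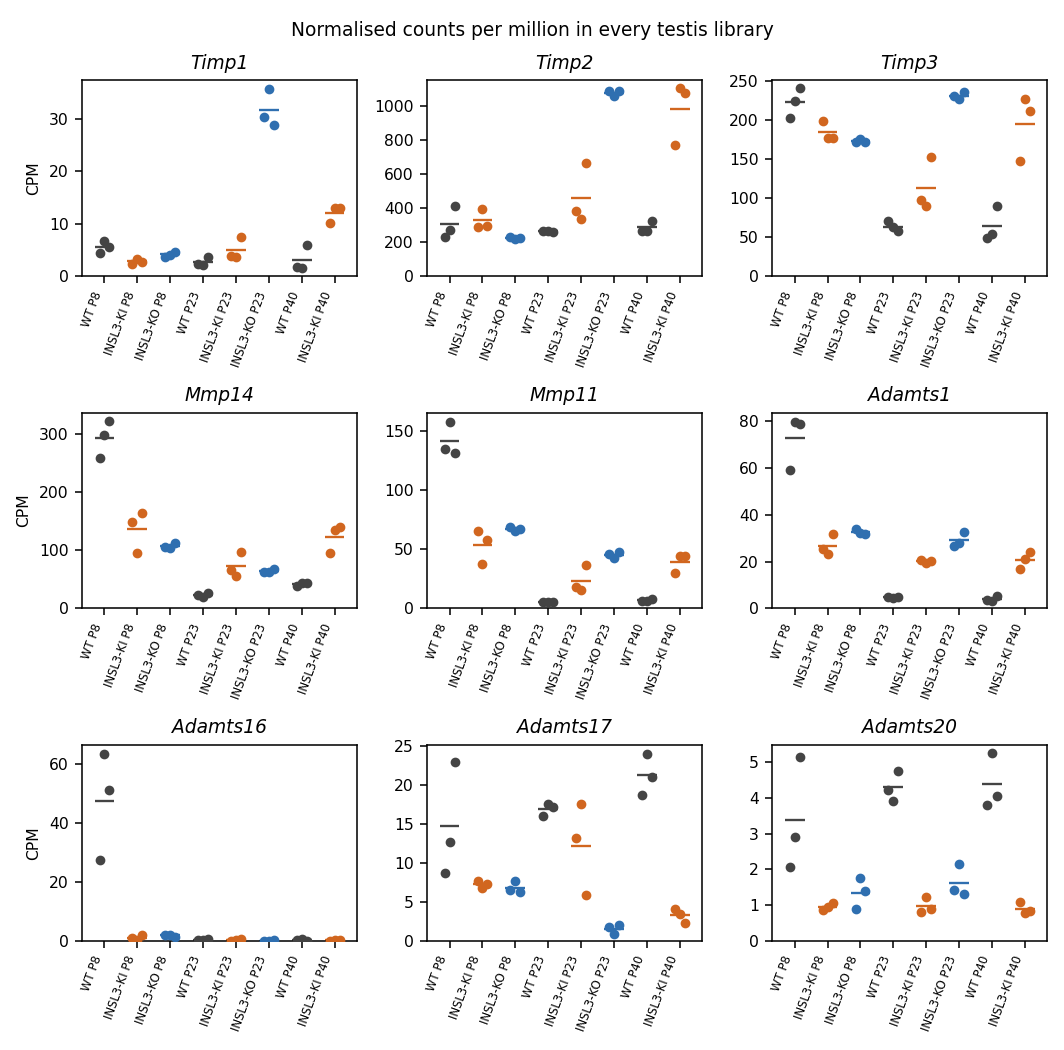
CPM of Timp1, Timp2, Timp3, Mmp14, Mmp11, Adamts1, Adamts16, Adamts17 and Adamts20 in each testis library (points) of the 8 groups, with bars at the group means. Adamts16 is at 27.5 to 63.5 CPM in the WT testis at P8 and at 2.01 or less in every other library, and Timp2 is at 1060 CPM or more in 5 of the 6 libraries of INSL3-KO at P23 and INSL3-KI at P40, on a scale of the whole testis RNA.

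In the P8 testis no member was called higher in either mutant. INSL3-KI had 6 members lower of 35 tested, against 6.29% of all genes called, 3.25% lower and 3.03% higher, and 33 of the 35 log2 fold changes were below zero, with a median of -0.99. The testes labelled INSL3-KO had 16 lower of 35, against 13.8% of all genes called, 8.37% lower and 5.44% higher, with a median of -1.15. Over all genes the medians were 0.00 and -0.02. Among the calls, the largest difference was that of Adamts16 in both mutants.

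Adamts16 was at 27.5, 63.5 and 51.2 CPM in WT, 0.791, 0.303 and 1.94 in INSL3-KI and 2.01, 1.86 and 1.4 in the testes labelled INSL3-KO. It fell 43.7-fold and 26.4-fold (-5.45 ± 0.69, adjusted p = 0.0046 and -4.72 ± 0.34, adjusted p = 5.5e-05). In the WT testis at P23 and P40 it was already at 0.322, 0.367 and 0.415 and 0.0877, 0.435 and 0 CPM. The difference from WT in Adamts16 was larger in the testes labelled INSL3-KO, which still held Insl3, than in the INSL3-KO gubernaculum of that age (3.74 ± 0.48, adjusted p = 8.86e-05 for gubernaculum against testis).

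Mmp2 was at 214, 314 and 385 CPM in WT, 74.5, 47.9 and 76.1 in INSL3-KI and 89.5, 98.1 and 95.9 in the testes labelled INSL3-KO (-2.13 ± 0.28, adjusted p = 0.00466 and -1.66 ± 0.20, adjusted p = 0.000414). Mmp14 was at 148, 95.4 and 164 CPM in INSL3-KI, where it did not pass (-1.04 ± 0.22, adjusted p = 0.0144). Both mutants lay below WT without overlap for both genes. Mmp11, stromelysin-3, which is activated inside the cell by furin, was at 135, 158 and 131 CPM in WT, 65.8, 37.6 and 57.6 in INSL3-KI and 69, 65.5 and 66.7 in the testes labelled INSL3-KO (-1.33 ± 0.22, adjusted p = 0.00764 and -1.05 ± 0.08, adjusted p = 6.52e-05).

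Mmp23 was at 29.5, 38.2 and 49.4 CPM in WT, 10.1, 5.91 and 12 in INSL3-KI and 16.7, 16.5 and 14.6 in the testes labelled INSL3-KO (-1.99 ± 0.32, adjusted p = 0.00719 and -1.27 ± 0.18, adjusted p = 0.00101). Adamts1 was at 59.2, 79.9 and 78.8, 25.4, 23.3 and 31.6 and 34, 32.3 and 31.9 CPM (-1.37 ± 0.18, adjusted p = 0.00462 and -1.12 ± 0.12, adjusted p = 0.000252). Adamts7 was at 49.5, 48.1 and 48.2, 20.3, 10.9 and 20 and 18.3, 17.3 and 16.9 CPM (-1.44 ± 0.25, adjusted p = 0.00856 and -1.45 ± 0.07, adjusted p = 1.35e-05). In each of these genes both mutants lay below WT. The implied length ratio of Adamts7 was 0.795.

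The knock-in calls at P8 were fragile. Without WT replicate 2 or 3, or without INSL3-KI replicate 1 or 3, 0 of the 6 remained by edgeR, and DESeq2, or all groups of the tissue in 1 fit, called 14 members. On the Sertoli cell list 3 were called, Adamts16 (-5.01), Mmp2 (-1.69) and Mmp23 (-1.56).

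In the testes labelled INSL3-KO several further members passed, although limma on log2(FPKM + 1) called 8 of the family in place of 16. Adamts12 fell 14.7-fold (-3.88 ± 0.37, adjusted p = 0.000166), from the values given above. Mmp28 was at 10.1, 12.6 and 17.1 CPM in WT and 2.97, 1.66 and 2.26 in the mutant (-2.51 ± 0.28, adjusted p = 0.000343). Adamts10 was at 70.8, 80.7 and 107 and 25.7, 26.6 and 22.5 CPM (-1.77 ± 0.16, adjusted p = 0.000131). Mmp16 was at 9.06, 12.2 and 13.3 and 3.65, 3.81 and 3.44 CPM (-1.64 ± 0.18, adjusted p = 0.000309). These last 3 have like lengths in both tables and did not overlap WT. Mmp15 was at 17.3, 20.8 and 24.7 CPM in WT and 5.43, 4.56 and 4.42 (-2.10 ± 0.17, adjusted p = 7.83e-05). Adamts6 was at 8.76, 12.9 and 15.2 and 1.85, 3.01 and 1.58 CPM (-2.49 ± 0.31, adjusted p = 0.000541). Their lengths differ between the tables as noted above. Mmp28 was not called in the INSL3-KO gubernaculum, and its difference from WT there was apart from that in the testes labelled INSL3-KO (2.39 ± 0.42, adjusted p = 0.000817).

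No inhibitor was called in the P8 testis. Timp1 was at 4.44, 6.7 and 5.5 CPM in WT, 2.37, 3.23 and 2.75 in INSL3-KI and 3.73, 4.07 and 4.66 in the testes labelled INSL3-KO (-0.93 ± 0.26, adjusted p = 0.0327 and -0.39 ± 0.21, adjusted p = 0.155). Timp2 was at 230, 272 and 411, 289, 397 and 298 and 229, 219 and 225 CPM (0.17 ± 0.23, adjusted p = 0.599 and -0.42 ± 0.20, adjusted p = 0.112). Timp3 was at 202, 224 and 241, 198, 177 and 177 and 172, 176 and 172 CPM (-0.21 ± 0.10, adjusted p = 0.151 and -0.33 ± 0.07, adjusted p = 0.00725). The knock-in overlapped WT for Timp2, whereas Timp1 in INSL3-KI lay below it, and Timp3 in both mutants did so by a narrow gap. Timp4 was at 1 CPM or less in all 9 libraries. Beside these values the Leydig cell list was at 555 to 676 CPM in WT, 207 to 219 in INSL3-KI and 425 to 439 in the testes labelled INSL3-KO, and the spermatocyte list at 73.2 to 131, 464 to 2000 and 634 to 642. The fibroblast list was at 1260 to 2540, 736 to 900 and 1060 to 1100 CPM and the endothelium list at 207 to 363, 89.3 to 136 and 114 to 117, with medians of -1.39 and -0.91 and of -1.15 and -1.12 in the 2 mutants. Their part in the differences was not tested.

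In the older testis the direction was the reverse. INSL3-KI at P23 had 1 member lower and 15 higher of 32 tested, against 20.6% of all genes called, 11.8% lower and 8.81% higher. That comparison runs across the tables, and 10 of its 16 calls were of members with like lengths. INSL3-KO at P23 had 3 lower and 17 higher of 33, against 64.4% of all genes, 33.4% lower and 31.1% higher, so its share of calls was no greater than that of all genes. INSL3-KI at P40 had 4 lower and 12 higher of 33, against 47.7% of all genes, 22.1% lower and 25.6% higher. The members' medians were 1.34, 1.48 and 1.11, and those of all genes 0.08, 0.06 and 0.09. Medians above zero were also those of the Sertoli cell list (1.52, 2.75 and 2.34), the fibroblast list (1.04, 2.44 and 2.0) and the macrophage list (0.89, 2.47 and 1.82). The spermatid list went from 16200 to 18200 CPM in WT to 83.4 to 850 in INSL3-KI and 14.2 to 16.6 in INSL3-KO at P23, and from 10100 to 12700 to 12.8 to 49.9 at P40. Scaled on the Sertoli cell list the splits were 3 lower and 1 higher, 20 lower and 0 higher, and 16 lower and 0 higher, with the median of all genes at -1.23, -2.70 and -2.23, so the rises below are relative to the RNA of the whole testis.

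Among the inhibitors, Timp2 was at 267, 265 and 257 CPM in WT, 384, 334 and 669 in INSL3-KI and 1090, 1060 and 1090 in INSL3-KO at P23. Both mutants were above WT, and INSL3-KO passed (2.10 ± 0.04, adjusted p = 1.3e-11) while INSL3-KI did not (0.83 ± 0.28, adjusted p = 0.0447). Scaled on the Sertoli cell list the INSL3-KO and INSL3-KI values were, in that order, -0.66 and -0.62. At P40 Timp2 was at 267, 267 and 327 CPM in WT and 770, 1110 and 1080 in INSL3-KI (1.84 ± 0.24, adjusted p = 0.000883), or -0.52 on the Sertoli cell list. This inhibitor reached 282 ± 0.119 FPKM in the INSL3-KO testis, against 42 ± 1.03 in WT.

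Timp3 was at 70.4, 62.2 and 57.3 CPM in WT, 97.4, 89.2 and 153 in INSL3-KI and 231, 226 and 236 in INSL3-KO at P23 (0.86 ± 0.23, adjusted p = 0.0225 and 1.93 ± 0.07, adjusted p = 1.78e-09). At P40 it was at 49.1, 53.9 and 89.2 and 147, 226 and 211 CPM (1.66 ± 0.31, adjusted p = 0.00364). Mutants were above WT without overlap in all 3 comparisons, but on the Sertoli cell list the values turned to -0.57, -0.83 and -0.69.

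Timp1 was at 2.34, 2.04 and 3.7 CPM in WT, 3.91, 3.59 and 7.49 in INSL3-KI and 30.4, 35.6 and 28.7 in INSL3-KO at P23 (0.91 ± 0.40, adjusted p = 0.0929 and 3.62 ± 0.20, adjusted p = 3.82e-08), and at 1.67, 1.46 and 5.94 and 10.1, 13 and 13 at P40 (2.03 ± 0.57, adjusted p = 0.0174). It rose 12.3-fold in INSL3-KO, and 0.86 on the log2 scale of the Sertoli cell list. Timp1 lies inside Syn1, which went from 0.527 to 0.579 CPM in WT to 6.62 to 8.06 in INSL3-KO, and their reads cannot be told apart. Timp4 was at 0.927, 0.978 and 0.748 CPM in WT, 0.299, 0.652 and 0 in INSL3-KI and 0.187, 0.621 and 0.0967 in INSL3-KO at P23, and at 1.01, 0.633 and 1.04 and 0.602, 0.4 and 1.3 at P40. None of its comparisons passed (-1.47 ± 0.92, -1.46 ± 0.62 and -0.16 ± 0.52).

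Mmp14 was at 22.7, 20 and 26.1 CPM in WT, 65.2, 55.1 and 97.2 in INSL3-KI and 62.7, 63.4 and 67.9 in INSL3-KO at P23 (1.68 ± 0.24, adjusted p = 0.00312 and 1.56 ± 0.09, adjusted p = 7.4e-08), and at 39.1, 44.3 and 44.2 and 95.3, 135 and 140 at P40 (1.60 ± 0.20, adjusted p = 0.000734). Mmp2 was at 7.38, 6.07 and 6.02, 18.3, 21.2 and 18 and 20.4, 17.3 and 19.8 CPM at P23 (1.58 ± 0.17, adjusted p = 0.00131 and 1.62 ± 0.13, adjusted p = 8.25e-07), and at 4.52, 4.11 and 13.2 and 11.9, 12.1 and 19.6 at P40 (1.04 ± 0.52, adjusted p = 0.106), where it did not pass. Mutants were above WT without overlap except for Mmp2 at P40. With Sertoli cell scaling INSL3-KO at P23 and INSL3-KI at P40 turned to -1.20 and -0.78 for Mmp14, and to -1.14 and -1.24 for Mmp2.

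Mmp11 was at 5.24, 5.54 and 5.44 CPM in WT, 17.7, 15.2 and 36.7 in INSL3-KI and 45.7, 42.8 and 47.8 in INSL3-KO at P23 (2.12 ± 0.36, adjusted p = 0.005 and 3.13 ± 0.09, adjusted p = 2e-10), and at 6.27, 6.37 and 7.85 and 29.9, 44.1 and 44.4 at P40 (2.59 ± 0.23, adjusted p = 0.000338). Mmp19 was at 3.83, 2.53 and 2.74 CPM in WT and 21.2, 16.8 and 19.3 in INSL3-KO (2.71 ± 0.18, adjusted p = 1.58e-07) and at 4.74, 3.24 and 3.66 and 15.6, 17.9 and 20.1 at P40 (2.26 ± 0.21, adjusted p = 0.000374). Mmp23 was at 1.57, 1.63 and 1.99 CPM in WT and 11.5, 13 and 11.8 in INSL3-KO (2.87 ± 0.16, adjusted p = 5.04e-08). No mutant library of these genes fell within WT. Under the same scaling Mmp11 kept its sign (0.62, 0.37 and 0.22) and Mmp19 turned (-0.05 and -0.09).

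Of the versican and aggrecan proteases, Adamts9, the nearest relative of Adamts20, was at 4.59, 5.83 and 4.32 CPM in WT, 24.8, 27.1 and 38.5 in INSL3-KI and 43.8, 41.7 and 39.7 in INSL3-KO at P23 (2.63 ± 0.24, adjusted p = 0.000833 and 3.15 ± 0.12, adjusted p = 2.35e-09). At P40 it was at 5.92, 4.39 and 8.49 and 36, 63.7 and 53.3 CPM (3.08 ± 0.35, adjusted p = 0.000564). It thus moved opposite to Adamts20 in the same libraries, and stayed above zero on the Sertoli cell list (1.25, 0.39 and 0.72).

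Adamts1 was at 4.88, 4.4 and 4.78 CPM in WT and 20.6, 19.2 and 20.4 in INSL3-KI at P23 (2.12 ± 0.15, adjusted p = 0.000404), and at 3.68, 3.16 and 5.4 and 16.9, 21 and 23.9 at P40 (2.39 ± 0.27, adjusted p = 0.000585). In INSL3-KO it was at 26.8, 27.8 and 32.6 CPM (2.69 ± 0.12, adjusted p = 6.55e-09). Over all comparisons it was called 7 times, 4 lower, all at P8, and 3 higher, all in the older testis, where the Sertoli cell list gave 0.80, -0.07 and 0.05.

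Adamts5, the main aggrecanase of cartilage, was at 15.6, 15.5 and 17.1 CPM in WT, 62.9, 55.2 and 93 in INSL3-KI and 110, 107 and 109 in INSL3-KO at P23 (2.15 ± 0.22, adjusted p = 0.0012 and 2.82 ± 0.06, adjusted p = 4.92e-11), and at 15.1, 14.9 and 22 and 76.1, 110 and 121 at P40 (2.62 ± 0.27, adjusted p = 0.000462). Adamts15 was at 2.26, 1.43 and 1.79, 10.6, 9.45 and 13.9 and 12.7, 12.1 and 12 CPM at P23 (2.65 ± 0.27, adjusted p = 0.00118 and 2.81 ± 0.18, adjusted p = 1.43e-07), and at 3.07, 2.37 and 4.09 and 14, 19.3 and 20.1 at P40 (2.54 ± 0.28, adjusted p = 0.000536). All mutant libraries were above all WT libraries. On the Sertoli cell list none of their rises in INSL3-KO at P23 or INSL3-KI at P40 passed, with values of 0.05 to 0.26. The implied length ratio of Adamts5 was 0.768.

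Adamts2 was at 18.1, 16.7 and 19.3 CPM in WT and 54.2, 58.2 and 70.5 in INSL3-KI at P23 (1.77 ± 0.15, adjusted p = 0.000655). Adamts10 was at 4.19, 3.38 and 3.78 and 15.7, 15.2 and 20 CPM (2.18 ± 0.20, adjusted p = 0.000831). Adamts12 was at 1.77, 1.63 and 0.623 CPM in WT and 6.77, 6.76 and 7.85 in INSL3-KI (2.42 ± 0.40, adjusted p = 0.00443). The knock-in was above WT in each. Adamts12 and Adamts2 had length ratios of 0.747 and 0.883, and on the Sertoli cell list none of the 3 passed (0.43, 0.82 and 1.08). For Adamts12 the rise sets knock-in libraries of the first table against WT libraries of the second. In the older testis comparisons made within a single table, Adamts12 was not called. Its log2 fold change there was -0.8 in INSL3-KO at P23 and 0.84 in INSL3-KI at P40. The part of the tables in its P23 rise was not tested. Without 1 library the 16 calls of INSL3-KI at P23 ranged from 4 to 17, with 4 left without WT replicate 2 or 3 and 5 without WT replicate 1.

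Adamts17, a protease tied to fibrillin microfibrils, was called lower in 2 of these 3 comparisons. It was at 16, 17.6 and 17.2 CPM in WT, 13.2, 17.5 and 5.81 in INSL3-KI and 1.71, 0.897 and 1.98 in INSL3-KO at P23, and at 18.7, 24 and 21 and 4.11, 3.45 and 2.25 at P40. INSL3-KO (-3.41 ± 0.24, adjusted p = 3.22e-07) and INSL3-KI at P40 (-2.65 ± 0.24, adjusted p = 0.000357) lay below WT without overlap, and the knock-in at P23 did not pass (-0.46 ± 0.37, adjusted p = 0.322). Mmp25, leukolysin, known from leukocytes, was at 1.09, 0.775 and 0.582 CPM in WT and had 0 counts in the INSL3-KO libraries of P23, at least 10.57-fold lower with the floor of 3 counts. At P40 it was at 1.36, 2.1 and 1.58 CPM in WT and 0.236, 0.175 and 0.22 in INSL3-KI (-2.92 ± 0.33, adjusted p = 0.000583).

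**Figure D5:**
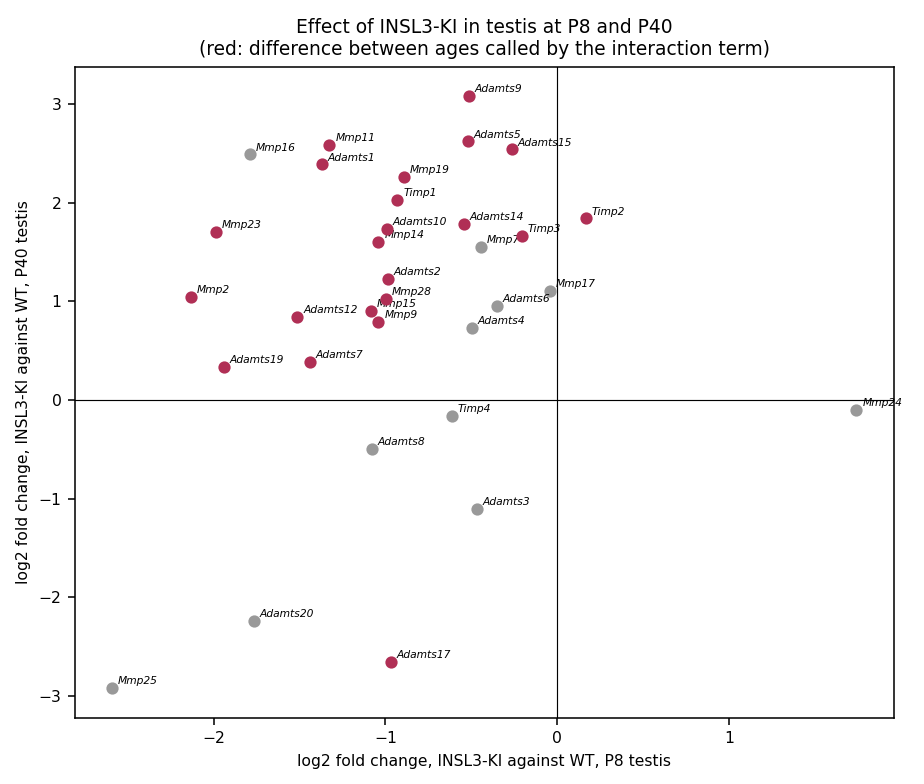
Log2 fold change of INSL3-KI against WT in the testis at P8 (horizontal) and at P40 (vertical) for the 33 members tested at both ages, one point each, red where the difference between the ages was called. Of the 33, 25 lie below zero at P8 and above zero at P40, relative to the RNA of the whole testis, and 6 lie below zero at both ages, Adamts20 among them.

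The change of direction with age was tested with an interaction term. Of 36 members, 21 had a knock-in effect higher at P40 than at P8 and 1 had it lower, against 45.6% of all genes called, 22.5% lower and 23.2% higher. Mmp11 differed most, by 3.84 ± 0.36 (adjusted p = 2.18e-05), followed by Adamts1 with 3.68 ± 0.35 and Mmp23 with 3.61 ± 0.67. Adamts17 differed the other way (-1.77 ± 0.45), and Adamts20 did not pass (-0.55 ± 0.47, adjusted p = 0.322). These effects are relative to the RNA of the whole testis, and the term was not fitted on the Sertoli cell list. On that list Mmp11 and Adamts1 went from -0.86 and -0.9 at P8 to 0.22 and 0.05 at P40. Timp2, Timp3 and Mmp14 went down instead, from 0.64, 0.26 and -0.59 to -0.52, -0.69 and -0.78.

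The WT testis also differed between ages. From P8 to P40, 24 members fell and 1 rose of 34 tested, against 59.7% of all genes called, 27.8% lower and 31.9% higher, with a median of -2.88 against -0.03. Adamts16 (-8.16 ± 0.67), Mmp2 (-5.41 ± 0.51) and Mmp16 (-5.33 ± 0.99) had the largest falls, and Mmp24, a membrane-type enzyme of neurons, rose (2.62 ± 0.58, adjusted p = 0.0035). Adamts20 was at 2.05, 2.91 and 5.15 CPM at P8 and 3.81, 5.26 and 4.06 at P40 and did not pass (0.32 ± 0.37, adjusted p = 0.443). On the Sertoli cell list the split was 10 lower and 7 higher. The WT gubernaculum had 4 members lower and 2 higher at P23 than at P8 of 35 tested, against 10.5% of all genes, 4.34% lower and 6.17% higher, and the members included Adamts14 (-2.40 ± 0.23) and Adamts2 (1.77 ± 0.28). Adamts14 was at 9.31, 7.78 and 13.7 CPM in WT by then and at 11.6, 19.7 and 6.05 in INSL3-KI (0.28 ± 0.47, adjusted p = 0.701).

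The WT tissues differed at P8, with 13 members higher and 6 lower in gubernaculum than in testis of 35 tested, against 28.4% of all genes, 14.3% lower and 14.1% higher. Adamts20 was 11.8-fold higher in the gubernaculum (3.56 ± 0.41, adjusted p = 0.000304). Adamts15 (2.35 ± 0.40), Adamts6 (2.08 ± 0.20), Adamts19 (2.01 ± 0.25), Mmp15 (1.97 ± 0.17) and Timp2 (1.39 ± 0.22) were also higher there, and Mmp11 (-2.37 ± 0.10), Adamts16 (-1.82 ± 0.37) and Adamts5 (-1.42 ± 0.10) were higher in testis.

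Substrates of these enzymes and the proteins that activate or clear them were followed from lists chosen for their known roles. In the P8 gubernaculum of INSL3-KI, 13 of 37 substrates were lower and 1 higher, 37.8% against the 24.1% of all genes called, with a median of -0.77. Periostin, Postn (-3.40 ± 0.18), thrombospondin-1, Thbs1 (-2.92 ± 0.19), fibronectin, Fn1 (-2.06 ± 0.20) and versican, Vcan (-1.97 ± 0.30), the substrate of Adamts20 and Adamts1, were among the lower ones, and the link protein gene Hapln1 was higher (1.91 ± 0.36). INSL3-KO had 13 lower and 2 higher of 37, 40.5% against 30.7%, Vcan among them (-1.32 ± 0.13). Of the activators, inhibitors and receptors 10 were lower and 2 higher of 33 in INSL3-KI, 36.4% against 24.1%. They included the protease trap A2m, at 20.2 to 33.2 CPM in WT and with 0 counts in every knock-in library, and the ADAMTS inhibitor Papln (-2.54 ± 0.17), while urokinase, Plau, was higher (1.32 ± 0.14). In INSL3-KO 7 were lower and 1 higher of 34, a share of 23.5% that was below the 30.7% of all genes.

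In the P8 testis 13 of 38 substrates were lower in INSL3-KI and 20 of 38 in the testes labelled INSL3-KO, and none was higher in either by edgeR, with 31 and 30 at an unadjusted p under 0.05. These were shares of 34.2% and 52.6%, against 6.29% and 13.8% of all genes. Versican, Vcan, was again among them (-3.16 ± 0.58 and -2.45 ± 0.34). In the older testis 18 substrates were higher and 0 lower in INSL3-KI at P23, 26 higher and 5 lower in INSL3-KO at P23, and 20 higher and 3 lower in INSL3-KI at P40, of 38 each time and relative to the RNA of the whole testis. The shares called were 47.4%, 81.6% and 60.5%, against 20.6%, 64.4% and 47.7% of all genes. Versican was higher in INSL3-KO at P23 (2.38 ± 0.23) and in INSL3-KI at P40 (2.11 ± 0.30), and fibrillin-2, Fbn2, was lower in both (-1.91 ± 0.08 and -1.01 ± 0.24). At P23 the gubernaculum of INSL3-KI had 1 substrate lower of 34, the angiogenesis inhibitor Thbs1 (-4.85 ± 0.44). Of the list of activators, inhibitors and receptors 2 were lower of 31, Ctsk and Adamtsl4. These were shares of 2.94% and 6.45%, against 2.57% of all genes.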

How the data were processed

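Gubernaculum and testis RNA was sequenced as messenger RNA libraries. Per the submitters' processing notes and the methods, the authors aligned reads to GRCm38 with HISAT2. The counting tool, its strand setting and the tools' versions are not given in the sources used here. The deposited tables give raw counts per gene for each library and the FPKM the authors computed from them. Counts were tested, and FPKM served to compare genes and in 1 alternative. The 2 tables were joined on Ensembl gene identifiers. They hold 94.2% to 97.9% of each library's counts in shared genes. Implied lengths agreed within 10% for 28 members and were further apart for 10. Comparisons across tables carry that difference.

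Libraries were grouped by their labels. Counts were tested with edgeR 4.0.16 (R 4.3.3) by its quasi-likelihood test after TMM scaling and filterByExpr (minimum count 10, minimum total 15), on the groups compared, with Benjamini-Hochberg adjustment over all genes tested. Calls needed an adjusted p under 0.01 and a fold of at least 2. CPM in the text were scaled by TMM over all libraries of a tissue, for Syn1, Syn2 and Syn3 without the filter on low counts. Those of Insl3 were scaled by each library's total counts alone. Fold changes come from each comparison's own fit. Where no library of a group exceeded 3 counts, that number was used as a floor for the fold. Such bounds cover counting error only. DESeq2 1.42.0, limma 3.58.1 on log2(FPKM + 1) and log2(FPKM + 0.1), other scalings, a replicate block, 1 fit for all groups of a tissue, no filter and leaving out each library were the alternatives. Like-length members alone and the tissue difference of the libraries labelled INSL3-KO at P8 were added after seeing the data. The scripts were tested on simulated data. No 2 replicates agreed within sampling noise, with chi-square per degree of freedom from 4.17 to 869.

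Values in every library are given for members called in a mutant with a mean of at least 5 CPM in a compared group, at most the 8 largest per comparison, and for Timp1 to Timp4, Mmp2 and Mmp14. Other genes come from fixed lists of substrates, activators and cell markers, and Syn1, Syn2 and Syn3 were added because they overlap TIMP genes. Members and lists were chosen with earlier results of these data known. Mmp3, Mmp7 and Mmp25, which that rule leaves out, and members called in other comparisons by size were named after their values were seen.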

Additional observations from a re-analysis of the deposited data

Results flagged for a closer look

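In the testis the effect of INSL3-KI differed between P40 and P8 by the interaction term of edgeR for 22 of 36 members. The values are the log2 fold change at P40 less that at P8, relative to the RNA of the whole testis. The term was not fitted on the Sertoli cell list. The MMPs were Mmp11 at 3.84, Mmp23 at 3.61, Mmp2 at 3.10, Mmp19 at 3.08, Mmp14 at 2.56, Mmp28 at 1.94, Mmp15 at 1.90 and Mmp9 at 1.75. The inhibitors were Timp1 at 2.89, Timp3 at 1.79 and Timp2 at 1.60. The versican and aggrecan proteases were Adamts1 at 3.68, Adamts9 at 3.52, Adamts5 at 3.06 and Adamts15 at 2.73. The procollagen proteases were Adamts14 at 2.25 and Adamts2 at 2.14. The other proteases were Adamts10 at 2.65, Adamts12 at 2.27, Adamts19 at 2.19, Adamts7 at 1.75 and Adamts17 at -1.77. Over all genes tested 45.6% were called.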

How the results depend on the processing

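Of the counts of called members under an alternative, 182 kept within 1.5 times the reported count and 36 did not. Of the named members' values 1183 kept direction and call, 120 lost a call, 25 gained one and 30 turned in sign. Causes were not tested unless stated.

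With all groups of a tissue in 1 fit, 5 members were called in INSL3-KI in the P8 gubernaculum, 9 in the P23 gubernaculum and 14 in the P8 testis. DESeq2 called 7 and 14 in the last 2 and 4 in the gubernaculum interaction. Library size alone gave 1 in the P23 gubernaculum. It moved the median of all genes to 0.34 in INSL3-KI in the P8 gubernaculum and 0.70 in INSL3-KI in the P40 testis. Limma on log2(FPKM + 1) gave 1 in the P23 gubernaculum and 8 in the testes labelled INSL3-KO at P8. On the Sertoli cell list 3 were called in INSL3-KI at P8 and 4 at P23. That list moved the median of all genes to -2.70 in INSL3-KO at P23 and -2.23 in INSL3-KI at P40. With members of like length only, 8 stayed in INSL3-KO and 8 in INSL3-KI against INSL3-KO in the gubernaculum, and 10 in INSL3-KI in the P23 testis, since fewer members were counted.

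Whether same-numbered libraries were paired is not given in the labels, and correlations over 3 libraries a group cannot exclude it. No comparison had every same-numbered pair correlated above 0.1. Single same-numbered pairs reached 0.41 in the P23 gubernaculum and 0.36 in the P8 testis (INSL3-KI against WT). Pairs of other numbers reached 0.24 and 0.2 there. In the testes labelled INSL3-KO against WT at P8, each library correlated best with its own number (0.023 to 0.038, against -0.034 to -0.0031 for other pairs), a hint from the data and not from the design. With the number as a replicate block, 0 members were called in INSL3-KI in the P23 gubernaculum and 0 in the P8 testis, 8 in the P23 testis, and 3 between ages in the WT gubernaculum.

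Without 1 library, calls ranged from 0 to 2 in the P23 gubernaculum, 0 to 7 in INSL3-KI in the P8 testis, 4 to 17 in INSL3-KI in the P23 testis, 2 to 5 between ages in the WT gubernaculum, 0 to 2 in the gubernaculum interaction and 5 to 10 in the tissue difference of the libraries labelled INSL3-KO at P8. In the P23 gubernaculum WT replicate 2 left 0, and WT replicate 1 or 3 or INSL3-KI replicate 1 left 1. In the P23 testis INSL3-KI replicate 1 left 7. In the WT gubernaculum P8 replicates 1 and 2 left 2, and P8 replicate 3 and P23 replicate 2 left 3. INSL3-KI replicate 3 of P23 gave 2 in the interaction, and replicate 1 of the testes labelled INSL3-KO left 5 in the tissue difference.

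Values that turned in sign in the P8 gubernaculum were Timp2 in INSL3-KI (0.10 by library size, 0.13 by limma with either pseudocount) and Timp1 in INSL3-KO (-0.0905 on the fibroblast list). At P23 it was Mmp14 (0.012 on that list). In the P8 testis they were Timp4 by limma (0.0285 and 0.0033 in INSL3-KI, 0.0641 and 0.20 in the testes labelled INSL3-KO), Timp3 in INSL3-KI (0.26 on the Sertoli cell list) and Timp2 in INSL3-KI (-0.0341 without WT replicate 1, up to 0.470 without WT replicate 3). On the Sertoli cell list Timp1, Timp2 and Timp3 turned in INSL3-KI at P23 (-0.55, -0.62 and -0.57). In INSL3-KO at P23 it turned Mmp19, Timp2, Timp3, Mmp2 and Mmp14 (-0.0495, -0.66, -0.83, -1.14 and -1.20). In INSL3-KI at P40 it turned Timp1, Mmp19, Timp2, Timp3, Mmp2 and Mmp14 (-0.25, -0.0916, -0.52, -0.69, -1.24 and -0.78). Timp4 there turned by library size (0.45), by limma (0.0516 and 0.20) and without INSL3-KI replicate 1 or 2 (0.0059 and 0.15), with -0.794 without replicate 3. The other 8 members were too low to test at this depth.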
